A study of Mus musculus with 14 samples.

Results

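The genes described here encode the subunits of the 5 complexes of oxidative phosphorylation that are written in the nuclear genome. They were chosen by name, with no measured value used, as every row whose symbol starts with Nduf followed by a, b, c, s or v and a number, with Sdha to Sdhd, Uqcr, Cox4 to Cox8 or Atp5, leaving out pseudogenes. This gave 84 of the 46946 rows of the count table, of which 37 were assigned to complex I, 4 to complex II, 8 to complex III, 18 to complex IV and 17 to complex V. RNA had been sequenced from thymus of C57BL/6;CBA mice carrying an Lmo2 transgene that develop T-cell acute lymphoblastic leukaemia, and from thymi of healthy mice without a transgene, the wild type (WT). The Rosa26-Lmo2+Sca1-Cre group held 3 tumours from mice of 9 months, in which Cre recombinase under the Sca1 promoter opens the Rosa26-Lmo2 allele in stem and progenitor cells so that all their blood cell progeny carry it. The Sca1-Lmo2 group held 4 tumours from mice of 7 to 8 months, in which Lmo2 is itself driven by the promoter of Sca1, a gene of stem and progenitor cells. The Rosa26-Lmo2+Mb1-Cre group held 2 tumours from mice of 20 months, with Cre driven from the Mb1 (Cd79a) locus of B-cell precursors. The Rosa26-Lmo2+Aid-Cre group was 1 tumour from a mouse of 22 months, with Cre driven by Aid in germinal centre B cells after injection of sheep red blood cells. The WT group held 4 thymi from mice of 4 months, carried neither Lmo2 allele nor Cre, and was younger than every tumour group, so that age and genotype cannot be told apart. The 3 Cre groups are called Sca1-Cre, Mb1-Cre and Aid-Cre tumours from here on. No label ties any of the libraries to a litter or a sequencing run, and p-values measure the spread between these libraries.

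Oxidative phosphorylation takes place in the inner mitochondrial membrane. Complex I (NADH dehydrogenase) and complex II (succinate dehydrogenase) pass electrons to coenzyme Q, complex III passes them on to cytochrome c, and complex IV (cytochrome c oxidase) passes them to oxygen. Complexes I, III and IV pump protons during this transfer, and complex V (ATP synthase) lets the protons flow back and makes ATP. Except for complex II, each complex also holds a few subunits encoded by mitochondrial DNA, and no row of the count table lies on the mitochondrial chromosome, so those subunits are not analysed here. Resting lymphocytes depend largely on this pathway for ATP, and dividing thymocytes and T cells use it together with glycolysis.

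The 14 libraries held 42985130 to 47667663 assigned counts, and the 84 genes took 0.787% to 2.18% of them. Levels are given as CPM, counts scaled to a common library total, corrected by TMM, a factor per library that balances the bulk of genes. CPM are not divided by transcript length, so levels are compared between libraries and not between genes. In 81 of the 84 genes at least 1 CPM was reached in at least 3 libraries, and these were tested among 17087 genes. Ndufa4l2, Cox8b and Cox8c did not pass, with at most 0.996, 0.0826 and 0.12 CPM in any library. Nuclear copies of mitochondrial sequence took 9.01%, 9.92% and 3.92% of the counts in the Sca1-Cre tumours and 2.34% to 6.72% in the 11 other libraries. The summed level of 11 thymocyte markers was 3277 to 7008 CPM in the 10 tumours, against 9192 to 10664 CPM in the 4 WT thymi, none of them at 0. The markers did not move together. Cd4, Cd8a, Cd8b1, Lck, Thy1 and Rag2 lay below WT in every tumour, while Cd3d, Cd3e, Cd3g and Rag1 overlapped WT. Ptcra lay above WT in every tumour, at 38.1 to 534 CPM against 23.2 to 36.7 CPM. The sum therefore does not tell how many T-lineage cells a library held. In bulk tissue, fewer cells of a type and less RNA per cell cannot be told apart. The Lmo2 row held 359, 181 and 418 counts in Sca1-Cre, 470, 867, 458 and 588 in Sca1-Lmo2 and 171 and 233 in Mb1-Cre tumours and 1064 in the Aid-Cre tumour, against 156, 82, 173 and 234 in WT. In these raw counts every Sca1-Lmo2 tumour was above every WT thymus, whereas both Mb1-Cre tumours and Sca1-Cre tumour 2 lay within the WT range. The TMM factor was 0.7065 in Sca1-Cre tumour 2 and 0.7469 in Mb1-Cre tumour 2, against 1.093 to 1.23 in WT. Scaling therefore raises these tumours against WT, and the order in CPM is not given here. The authors reported Lmo2 as lost in sorted Sca1-Lmo2 leukaemic cells and present in Mb1-Cre tumours. They also described non-tumour T cells that keep Lmo2 in Sca1-Lmo2 thymi. Sex was not labelled. By Xist and Ddx3y counts, Sca1-Cre tumours 1 and 2, Sca1-Lmo2 tumours 1 and 3 and WT thymi 3 and 4 were female, and the 8 other libraries were male. In WT, both male thymi lay above both female thymi in 72 of the 81 tested genes and below them in 3, with a median difference of 0.71 on the log2 scale (male minus female). This count was not made over all genes. With 2 thymi of each sex, sex cannot be told apart from any other difference between these pairs.

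The summed level of the 84 genes was highest in the Mb1-Cre tumours, at 19655 and 29186 CPM. It was 16851, 26233 and 11463 CPM in the Sca1-Cre tumours and 9309, 10033, 13334 and 11475 CPM in the Sca1-Lmo2 tumours. It was 10259 CPM in the Aid-Cre tumour, against 10835, 10145, 7270.3 and 6399 CPM in WT thymi. All Sca1-Cre and Mb1-Cre tumours therefore lay above the highest WT thymus, the lowest Sca1-Cre tumour by a small margin, while the Sca1-Lmo2 tumours overlapped WT. The group means were 18182.5 ± 7475 CPM in Sca1-Cre (SD, n = 3), 11037.5 ± 1776 CPM in Sca1-Lmo2 (SD, n = 4) and 24420.4 ± 6740 CPM in Mb1-Cre tumours (SD, n = 2), against 8662 ± 2159 CPM in WT (SD, n = 4). The genes that were highest in the library of highest summed level were counted in each group. Of the 81 tested genes, 72 were highest in Sca1-Cre tumour 2, 66 in Mb1-Cre tumour 2, 53 in Sca1-Lmo2 tumour 3 and 57 in WT thymus 1, each among the libraries of its own group. These libraries were picked by the sum of the same genes, and all genes were not counted. The numbers therefore cannot show whether the genes moved together. The median coefficient of variation over genes was 38.4% in Sca1-Cre, 23.8% in Sca1-Lmo2 and 28.9% in Mb1-Cre tumours, against 29.8% in WT.

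**Figure D1:**
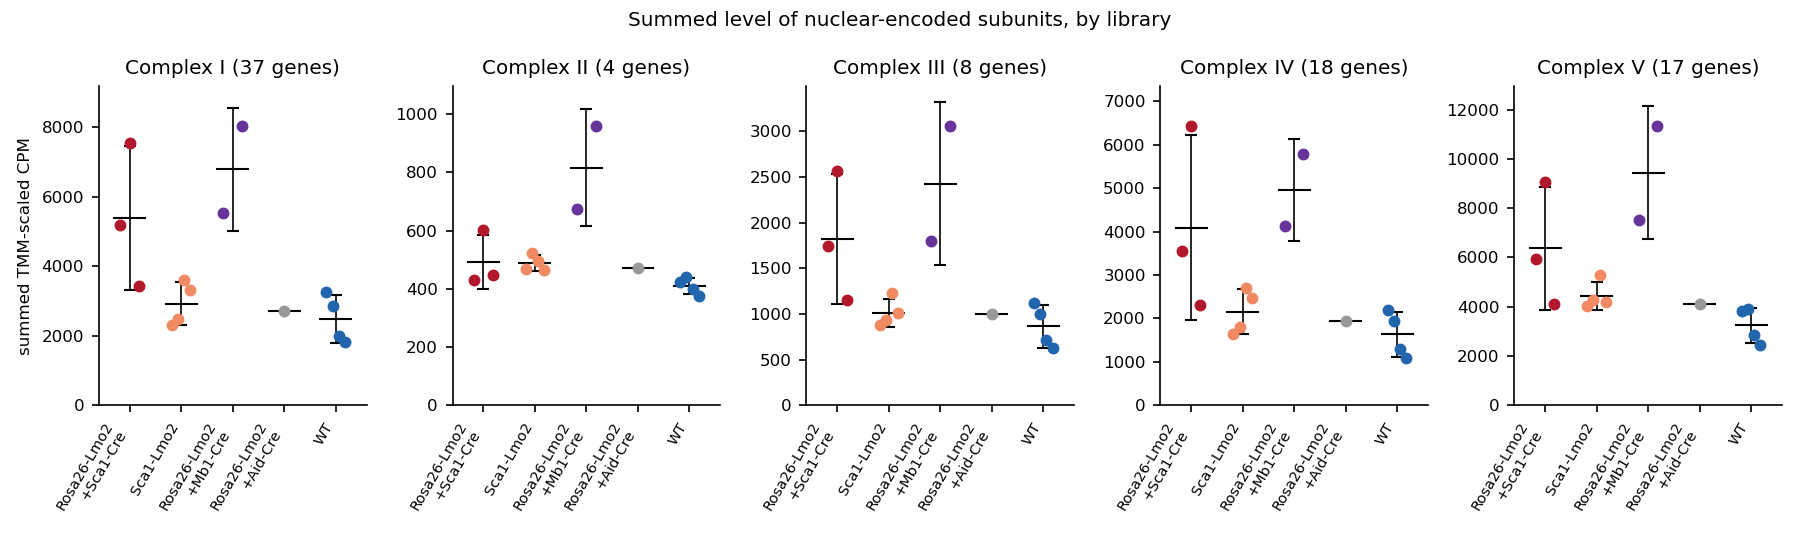
Summed TMM-scaled CPM of the subunits of complexes I to V in each library, by group, with a line at the mean and bars of 1 SD. Mb1-Cre tumours lie above every WT thymus in each complex, and the 4 complex II genes spread least.

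Against WT, 51 of the 81 tested genes rose in Sca1-Cre tumours and none fell (63%, against 16.5% higher and 10.4% lower over all 17087 genes tested by edgeR's quasi-likelihood test at an adjusted p under 0.05). In Mb1-Cre tumours 68 rose and none fell (84%, against 19.7% higher and 15.4% lower over all genes). In Sca1-Lmo2 tumours 5 rose and none fell (6.17%, against 12.1% higher and 10.2% lower over all genes), a share below that of all genes. The median log2 fold change of the 81 genes was 1.09 in Sca1-Cre, 0.26 in Sca1-Lmo2 and 1.52 in Mb1-Cre tumours. Over all genes tested the same medians were 0.06, 0.05 and -0.01. The 3 comparisons share the WT thymi. Every library lay above the top of the WT range in 40 genes for Sca1-Cre, 13 for Sca1-Lmo2 and 74 for Mb1-Cre tumours, and below its foot in 0 genes in all 3. These counts depend on the number of libraries in a group and were not made over all genes. Taken by library, the median gene stood at 0.97, 1.62 and 0.47 over the WT mean on the log2 scale in the Sca1-Cre tumours, at -0.09, 0.11, 0.60 and 0.48 in the Sca1-Lmo2 tumours, and at 1.27 and 1.77 in the Mb1-Cre tumours. It stood at 0.34 in the Aid-Cre tumour and at 0.43, 0.29, -0.25 and -0.45 in the WT thymi. The count for Sca1-Cre tumours rested on few libraries: 14 genes were called without Sca1-Cre tumour 2, and 21 without WT thymus 3 or without WT thymus 4. The count for Mb1-Cre tumours was 21 without Mb1-Cre tumour 2, a fit in which the lone Mb1-Cre tumour is assumed to vary like the other groups. A smaller set was called in every fit that left out 1 library, with 13 genes in Sca1-Cre, 2 in Sca1-Lmo2 and 19 in Mb1-Cre tumours, the last resting on the same assumption. Reads were counted without strand, and 21 of the 84 genes overlap another gene with at least 0.1 times their counts. Among the 61 tested genes with no such overlap, 38 rose in Sca1-Cre, 4 in Sca1-Lmo2 and 50 in Mb1-Cre tumours.

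**Figure D2:**
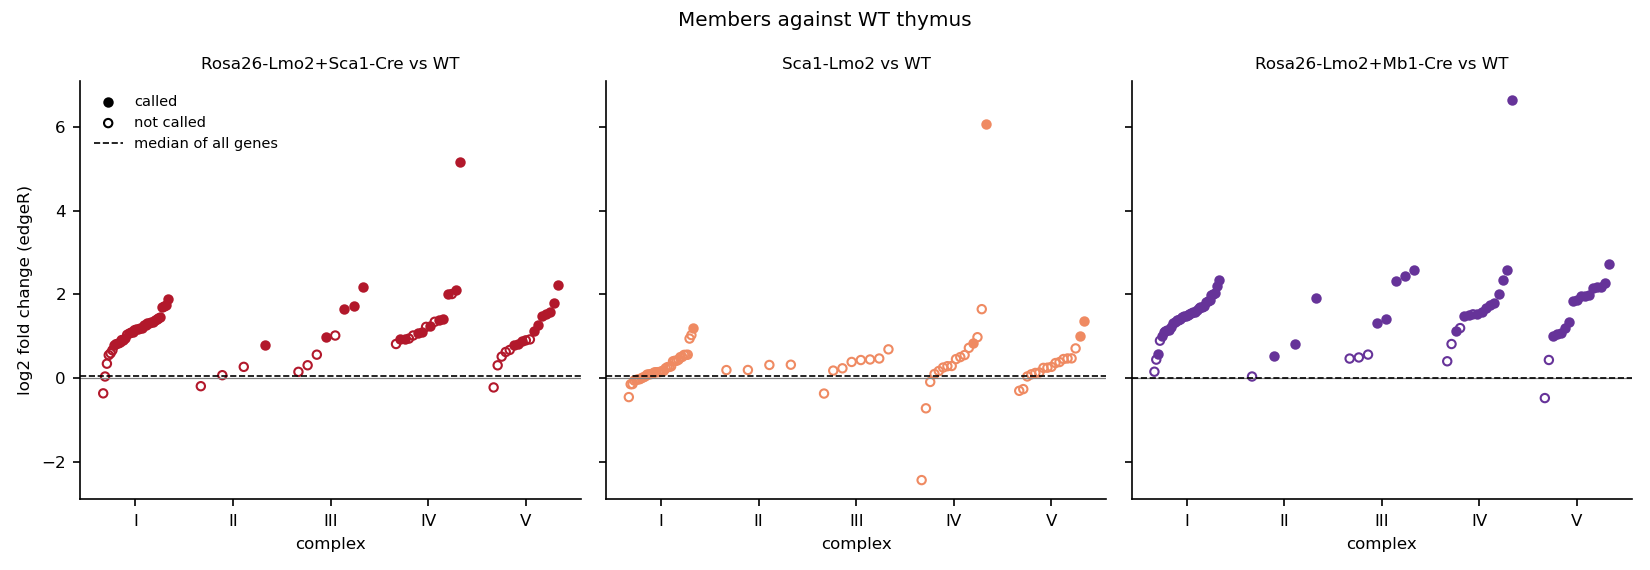
Log2 fold change against WT of each tested gene, by complex and tumour group, with filled points for genes that passed an adjusted p of 0.05 and a dashed line at the median of all tested genes. Most complex I, III, IV and V genes lie above 0 in Sca1-Cre and Mb1-Cre tumours, and the Sca1-Lmo2 values gather near 0.

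Complex I, the entry point for electrons from NADH, rose in most of its genes in Sca1-Cre and Mb1-Cre tumours. In Mb1-Cre tumours 33 of its 36 tested genes rose (median log2 fold change 1.50), in Sca1-Cre tumours 26 of 36 (median 1.15), and in Sca1-Lmo2 tumours 1 of 36. These shares were 91.7%, 72.2% and 2.78%, against 19.7%, 16.5% and 12.1% of all genes. The Sca1-Lmo2 share was below that of all genes. The summed level of complex I was 5196, 7564 and 3437 CPM in Sca1-Cre, 2299, 2495, 3606 and 3317.5 CPM in Sca1-Lmo2, and 5537 and 8043 CPM in Mb1-Cre tumours. It was 2719 CPM in the Aid-Cre tumour, against 3269, 2865, 2009 and 1826 CPM in WT. Sca1-Cre and Mb1-Cre tumours did not overlap WT. The 7 nuclear-encoded core subunits, which hold the flavin and the iron-sulphur clusters, and the accessory subunits, which surround the core and carry no redox centre, differed in how many rose. In Sca1-Cre tumours 3 of 7 core and 23 of 29 tested accessory genes rose, with median log2 fold changes of 0.66 and 1.19. In Mb1-Cre tumours 5 of 7 and 28 of 29 rose, with medians of 1.15 and 1.57. The difference between core and accessory genes was not tested.

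Ndufa10, an accessory subunit of the membrane arm of complex I, is encoded on the minus strand of chromosome 1 (GRCm38, 92439010 to 92473860). Its level was 139.9, 124 and 102 CPM in Sca1-Cre, 130.1, 103, 179.8 and 119 CPM in Sca1-Lmo2 and 214 and 251 CPM in Mb1-Cre tumours. It was 84.3 CPM in the Aid-Cre tumour, against 62.8, 65.7, 52.8 and 49 CPM in WT. All 10 tumours were above all 4 WT thymi. The log2 fold change was 1.08 ± 0.21 in Sca1-Cre (SE, edgeR adjusted p = 0.00737), 1.21 ± 0.20 in Sca1-Lmo2 (adjusted p = 0.00248) and 2.01 ± 0.23 in Mb1-Cre tumours (adjusted p = 0.000579), and it was called in all 3 whichever single library was left out.

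Ndufa12, an accessory subunit at the junction of the arms of complex I, had 91, 153 and 56.9 CPM in Sca1-Cre, 58.5, 58.4, 89.4 and 80.4 CPM in Sca1-Lmo2 and 135 and 245 CPM in Mb1-Cre tumours. It had 55 CPM in the Aid-Cre tumour, against 36.7, 53.6, 31.6 and 27.1 CPM in WT. Every tumour was above WT here too, with log2 fold changes of 1.43 ± 0.35 in Sca1-Cre (SE, edgeR adjusted p = 0.0142), 0.94 ± 0.32 in Sca1-Lmo2 (adjusted p = 0.0547, not past the threshold) and 2.35 ± 0.38 in Mb1-Cre tumours (adjusted p = 0.00186). Ndufa2, an accessory subunit of the peripheral arm, was lower in Sca1-Lmo2 than in Sca1-Cre tumours (edgeR adjusted p = 0.0285). It had 425, 558 and 159 CPM in Sca1-Cre, 68.7, 77.2, 144 and 112 CPM in Sca1-Lmo2 and 209 and 447 CPM in Mb1-Cre tumours, and 95.5 CPM in the Aid-Cre tumour, against 166, 118, 67.1 and 61.3 CPM in WT. The Sca1-Lmo2 tumours lay within the WT range and below every Sca1-Cre and Mb1-Cre tumour, the Mb1-Cre tumours lay within the Sca1-Cre range, and Sca1-Cre tumour 3 lay within the WT range as well. Its log2 fold change against WT was 1.89 ± 0.47 in Sca1-Cre (SE, edgeR adjusted p = 0.0159), -0.04 ± 0.44 in Sca1-Lmo2 (adjusted p = 0.963) and 1.67 ± 0.51 in Mb1-Cre tumours (adjusted p = 0.0259). Ndufa2 overlaps Tmco6, and reads of the pair cannot be told apart.

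Among the core genes, Ndufv1, which binds NADH and the flavin, had 121, 137 and 117 CPM in Sca1-Cre, 87.6, 88.2, 138 and 111 CPM in Sca1-Lmo2 and 194 and 185 CPM in Mb1-Cre tumours. It had 66.3 CPM in the Aid-Cre tumour, against 82.4, 86.8, 63.6 and 56.4 CPM in WT. All 3 replicated tumour groups lay above WT and the Aid-Cre tumour within it. The log2 fold change was 0.79 ± 0.21 in Sca1-Cre (SE, edgeR adjusted p = 0.0185), 0.55 ± 0.19 in Sca1-Lmo2 (adjusted p = 0.0586, not past the threshold) and 1.39 ± 0.23 in Mb1-Cre tumours (adjusted p = 0.00193). Ndufs1, the largest core subunit and carrier of several iron-sulphur clusters, went another way. It had 41.9, 45.1 and 58.9 CPM in Sca1-Cre, 74.9, 96.4, 53.3 and 51.7 CPM in Sca1-Lmo2 and 67 and 72.3 CPM in Mb1-Cre tumours, and 94.1 CPM in the Aid-Cre tumour, against 52.4, 56, 70.2 and 72.5 CPM in WT. The groups overlapped, its log2 fold change was -0.37 ± 0.24 in Sca1-Cre tumours (SE, edgeR adjusted p = 0.254), and it passed in none of the comparisons. Ndufs1 also overlaps another gene. Ndufa4, named as a complex I gene but known as a subunit of cytochrome c oxidase, had 407, 562 and 192 CPM in Sca1-Cre, 115, 139.9, 203 and 262 CPM in Sca1-Lmo2 and 350.2 and 639.7 CPM in Mb1-Cre tumours, and 167 CPM in the Aid-Cre tumour, against 217, 183, 129.9 and 109 CPM in WT. It rose in Sca1-Cre (log2 fold change 1.28 ± 0.40, SE, edgeR adjusted p = 0.0358) and Mb1-Cre tumours (1.63 ± 0.44, adjusted p = 0.0149).

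Complex II, which is also the succinate dehydrogenase of the tricarboxylic acid cycle, spread least between groups. Its summed level was 431, 600.2 and 446 CPM in Sca1-Cre, 468, 524, 496 and 464 CPM in Sca1-Lmo2 and 673 and 959 CPM in Mb1-Cre tumours. It was 471 CPM in the Aid-Cre tumour, against 423, 442, 399 and 376 CPM in WT. Only the Sca1-Cre tumours overlapped WT, through tumour 1. Sdhb, the iron-sulphur subunit, had the largest fold change of the 4 genes in Mb1-Cre tumours. It had 163, 261 and 161 CPM in Sca1-Cre, 124, 125, 164 and 149 CPM in Sca1-Lmo2 and 316 and 538 CPM in Mb1-Cre tumours, and 181 CPM in the Aid-Cre tumour, against 126, 138, 106 and 83.5 CPM in WT. Mb1-Cre tumours stood above all other libraries. The log2 fold change of Sdhb was 1.92 ± 0.28 in Mb1-Cre (SE, edgeR adjusted p = 0.00147) and 0.79 ± 0.26 in Sca1-Cre tumours (adjusted p = 0.0413), with 0.31 ± 0.24 in Sca1-Lmo2 tumours (adjusted p = 0.372).

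Sdha, the flavin subunit that oxidises succinate, did not follow Sdhb. It had 116, 153 and 132 CPM in Sca1-Cre, 183, 218, 149 and 148 CPM in Sca1-Lmo2 and 148 and 166 CPM in Mb1-Cre tumours, and 121 CPM in the Aid-Cre tumour, against 138, 152, 160.4 and 162 CPM in WT. Its log2 fold changes were -0.20 ± 0.18, 0.19 ± 0.17 and 0.04 ± 0.21 in Sca1-Cre, Sca1-Lmo2 and Mb1-Cre tumours (SE, edgeR adjusted p of 0.432, 0.444 and 0.904). The membrane anchors moved less than Sdhb and passed in Mb1-Cre tumours only. Sdhc had 59.6, 69.3 and 57.8 CPM in Sca1-Cre, 60.9, 63.7, 71.3 and 75.2 CPM in Sca1-Lmo2 and 83.3 and 87.3 CPM in Mb1-Cre tumours, and 57.3 CPM in the Aid-Cre tumour, against 68.3, 60.2, 55.8 and 53.1 CPM in WT. Sdhd had 92.3, 117 and 94.9 CPM in Sca1-Cre, 99.3, 118, 111 and 92.4 CPM in Sca1-Lmo2 and 126 and 168 CPM in Mb1-Cre tumours, and 111 CPM in the Aid-Cre tumour, against 91, 91.6, 77 and 77.6 CPM in WT. In Mb1-Cre tumours the log2 fold change was 0.52 ± 0.17 for Sdhc (SE, edgeR adjusted p = 0.031) and 0.80 ± 0.19 for Sdhd (adjusted p = 0.00816), both smaller than that of Sdhb in the same tumours. The difference between the genes was not tested.

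Complex III, the cytochrome bc1 complex, split by the size of its subunits. The summed level of its 8 genes was 1742, 2563 and 1150.5 CPM in Sca1-Cre, 874, 937, 1229 and 1016 CPM in Sca1-Lmo2 and 1796 and 3059.5 CPM in Mb1-Cre tumours. It was 1004 CPM in the Aid-Cre tumour, against 1125, 998, 710 and 631 CPM in WT. Of the 5 genes for small subunits, 4 rose in Sca1-Cre and all 5 in Mb1-Cre tumours, with median log2 fold changes of 1.64 and 2.32. Over all genes 16.5% and 19.7% rose in these models. Of the 3 genes for the large core proteins and the Rieske iron-sulphur protein (Uqcrc1, Uqcrc2 and Uqcrfs1) none passed in any group, with medians of 0.31 in Sca1-Cre, 0.44 in Sca1-Lmo2 and 0.49 in Mb1-Cre tumours. The difference between these sets was not tested, and the sets also differ in mRNA length, for which values are given further on.

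Uqcr11, a small accessory subunit, had 129, 256 and 100.1 CPM in Sca1-Cre, 45.4, 60.1, 83.1 and 77.3 CPM in Sca1-Lmo2 and 159.7 and 428 CPM in Mb1-Cre tumours. It had 71.9 CPM in the Aid-Cre tumour, against 68.6, 61.2, 36.2 and 31.3 CPM in WT. Sca1-Cre and Mb1-Cre tumours lay above WT without overlap and the Sca1-Lmo2 tumours within and just above it, with log2 fold changes of 1.71 ± 0.42 in Sca1-Cre (SE, edgeR adjusted p = 0.0146), 0.43 ± 0.39 in Sca1-Lmo2 (adjusted p = 0.45) and 2.57 ± 0.46 in Mb1-Cre tumours (adjusted p = 0.00264). Uqcr10, the subunit next to the hinge of cytochrome c1, had 188, 375 and 162 CPM in Sca1-Cre, 76.1, 97.4, 133 and 98.1 CPM in Sca1-Lmo2 and 286 and 486 CPM in Mb1-Cre tumours, and 111 CPM in the Aid-Cre tumour, against 111, 91.8, 59.5 and 47.8 CPM in WT. Its log2 fold change was 1.64 ± 0.36 in Sca1-Cre (SE, edgeR adjusted p = 0.0108), 0.38 ± 0.34 in Sca1-Lmo2 (adjusted p = 0.436) and 2.32 ± 0.40 in Mb1-Cre tumours (adjusted p = 0.00229). Uqcrq, the coenzyme Q-binding small subunit, had 452, 449 and 138 CPM in Sca1-Cre, 102, 77.6, 193 and 123 CPM in Sca1-Lmo2 and 303 and 534 CPM in Mb1-Cre tumours, and 118 CPM in the Aid-Cre tumour, against 108, 92.1, 56.8 and 51 CPM in WT. Its log2 fold change of 2.17 ± 0.45 was the largest of complex III in Sca1-Cre tumours (SE, edgeR adjusted p = 0.0088), and 2.44 ± 0.48 was found in Mb1-Cre tumours (adjusted p = 0.00418). By contrast Uqcrc1, a large core protein, had 158, 174 and 153 CPM in Sca1-Cre, 155, 164, 225 and 169 CPM in Sca1-Lmo2 and 189 and 172 CPM in Mb1-Cre tumours, and 114 CPM in the Aid-Cre tumour, against 149, 161, 111 and 102 CPM in WT. Its log2 fold changes were 0.30 ± 0.20, 0.44 ± 0.19 and 0.46 ± 0.23 in Sca1-Cre, Sca1-Lmo2 and Mb1-Cre tumours (SE, edgeR adjusted p of 0.267, 0.11 and 0.126). Uqcrfs1, the Rieske protein, had 101, 166 and 99.1 CPM in Sca1-Cre, 76.9, 111, 92.6 and 94.3 CPM in Sca1-Lmo2 and 112 and 121 CPM in Mb1-Cre tumours, and 67.4 CPM in the Aid-Cre tumour, against 94.8, 97.2, 71.4 and 67.9 CPM in WT, and it passed in none of these comparisons.

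Nuclear genes of this pathway are known to be served by a few transcription factors, among them NRF1, GABPA (an ETS factor), YY1 and, at E-boxes, MYC. The windows from 250 bases before to 50 bases after the gene start in RefSeq (GRCm38.p6) are shown for 3 genes that the results turn on: Uqcr11, which rose in 2 models, Uqcrc1, a gene of the same complex that passed in none, and Atp5g1, which rose in 3. They lie on chromosome 10 (80406772 to 80407071, minus strand), chromosome 9 (108936398 to 108936697, plus strand) and chromosome 11 (96075582 to 96075881, minus strand). Capitals mark exact matches to CCGGAAGT (GABPA) and CGCATGCG (NRF1) in Uqcr11, to CGCATGCG in Uqcrc1 and to the E-box CACGTG in Atp5g1.
Uqcr11: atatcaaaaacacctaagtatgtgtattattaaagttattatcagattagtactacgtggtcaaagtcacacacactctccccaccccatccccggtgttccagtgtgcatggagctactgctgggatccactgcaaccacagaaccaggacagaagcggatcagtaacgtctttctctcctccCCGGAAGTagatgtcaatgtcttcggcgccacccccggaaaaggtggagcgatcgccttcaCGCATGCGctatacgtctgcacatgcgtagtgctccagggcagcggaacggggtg
Uqcrc1: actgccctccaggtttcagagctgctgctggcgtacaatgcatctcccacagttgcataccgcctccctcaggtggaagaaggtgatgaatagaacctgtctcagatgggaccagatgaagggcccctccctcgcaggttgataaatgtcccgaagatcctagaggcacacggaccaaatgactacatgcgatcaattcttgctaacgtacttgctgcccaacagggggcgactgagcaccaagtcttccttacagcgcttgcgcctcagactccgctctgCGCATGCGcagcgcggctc
Atp5g1: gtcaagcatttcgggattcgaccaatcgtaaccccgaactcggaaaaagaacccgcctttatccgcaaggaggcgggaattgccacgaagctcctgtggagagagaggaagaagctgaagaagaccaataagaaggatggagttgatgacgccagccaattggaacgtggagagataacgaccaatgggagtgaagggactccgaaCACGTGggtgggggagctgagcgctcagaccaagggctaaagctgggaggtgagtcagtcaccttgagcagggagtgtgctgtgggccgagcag
Windows were at hand for 69 of the 84 genes, and both strands were searched. CGCATGCG was found in 9 of the 69 (13.0%), against 2.07% of all 27025 genes in the RefSeq table, and AAGATGGC (YY1) in 11 (15.9%), against 3.19%. CCGGAAGT was found in 5 (7.25%), against 4.31%, and CACGTG in 7 (10.1%), against 8.09%. The matches shown do not overlap each other, and CGCATGCG and CACGTG read the same on both strands. The NRF1 letters stood in the window of a gene that rose and of a gene that did not pass, so the match is given as a description of sequence.

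Complex IV, the terminal oxidase, rose in 10 of 16 tested genes in Sca1-Cre (median log2 fold change 1.24), in 2 of 16 in Sca1-Lmo2 and in 12 of 16 in Mb1-Cre tumours (median 1.56). These shares were 62.5%, 12.5% and 75%, against 16.5%, 12.1% and 19.7% of all genes. The Sca1-Lmo2 share was near that of all genes. The summed level of complex IV was 3549.7, 6434.5 and 2299 CPM in Sca1-Cre, 1646, 1798, 2710.1 and 2476 CPM in Sca1-Lmo2 and 4128 and 5786 CPM in Mb1-Cre tumours. It was 1945 CPM in the Aid-Cre tumour, against 2201, 1949, 1308 and 1099.8 CPM in WT. Sca1-Cre and Mb1-Cre tumours lay above WT. Several subunits of this complex exist as a ubiquitous form and a form of muscle, testis or other tissues, encoded by separate genes.

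Among the ubiquitous forms, Cox6c had 475, 1366 and 348 CPM in Sca1-Cre, 228, 161, 393 and 341 CPM in Sca1-Lmo2 and 643 and 1087 CPM in Mb1-Cre tumours. It had 255 CPM in the Aid-Cre tumour, against 237, 186, 138 and 120.0 CPM in WT. Sca1-Cre and Mb1-Cre tumours lay above WT, with log2 fold changes of 2.099 ± 0.47 (SE, edgeR adjusted p = 0.0114) and 2.34 ± 0.51 (adjusted p = 0.0061), and Sca1-Lmo2 tumours overlapped WT at 0.72 ± 0.44 (adjusted p = 0.252). Cox8a, the ubiquitous form of the smallest subunit, had 239, 308 and 156 CPM in Sca1-Cre, 185, 213, 272 and 206 CPM in Sca1-Lmo2 and 320.3 and 379 CPM in Mb1-Cre tumours, and 207 CPM in the Aid-Cre tumour, against 148, 156, 107 and 82.2 CPM in WT. It rose by 0.92 ± 0.28 in Sca1-Cre (SE, edgeR adjusted p = 0.0295), 0.83 ± 0.26 in Sca1-Lmo2 (adjusted p = 0.038) and 1.50 ± 0.30 in Mb1-Cre tumours (adjusted p = 0.00452) on the log2 scale. Cox5b, which binds zinc, had 192, 299 and 179.5 CPM in Sca1-Cre, 102, 129, 179.8 and 139.8 CPM in Sca1-Lmo2 and 234 and 419 CPM in Mb1-Cre tumours, and 143 CPM in the Aid-Cre tumour, against 115, 118, 79.9 and 63.2 CPM in WT. It rose by 1.25 ± 0.30 in Sca1-Cre (SE, edgeR adjusted p = 0.0142) and 1.79 ± 0.33 in Mb1-Cre tumours (adjusted p = 0.00308). Cox5a, its partner that faces the matrix, rose by 0.93 ± 0.30 in Sca1-Cre (SE, edgeR adjusted p = 0.0406) and 1.53 ± 0.33 in Mb1-Cre tumours (adjusted p = 0.00605), though it overlaps another gene.

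The paired isoforms differed in level and in group. Cox4i1, the common form of the largest nuclear-encoded subunit, had 434, 664 and 314 CPM in Sca1-Cre, 204, 234, 359 and 367 CPM in Sca1-Lmo2 and 515 and 557 CPM in Mb1-Cre tumours, and 158 CPM in the Aid-Cre tumour, against 338, 297, 181 and 162 CPM in WT. It passed in Mb1-Cre tumours (log2 fold change 1.13 ± 0.37, SE, edgeR adjusted p = 0.0341) and fell just short in Sca1-Cre tumours (0.94 ± 0.34, adjusted p = 0.0549), and it overlaps Gm20388. Cox4i2, its lung form, stood at 0.338 to 2.67 CPM in Sca1-Cre, 0.725 to 2.39 CPM in Sca1-Lmo2 and 1.59 to 3.81 CPM in Mb1-Cre tumours and 1.44 CPM in the Aid-Cre tumour, against 0.435 to 0.475 CPM in WT. It passed in Mb1-Cre tumours at 2.58 ± 0.75 (SE, edgeR adjusted p = 0.0205). Cox6b1, which joins the monomers of the dimer, had 317, 438 and 204 CPM in Sca1-Cre, 131, 150.2, 212 and 179 CPM in Sca1-Lmo2 and 382 and 579 CPM in Mb1-Cre tumours, and 183 CPM in the Aid-Cre tumour, against 202, 185, 114 and 98.5 CPM in WT. It rose by 1.09 ± 0.32 in Sca1-Cre (SE, edgeR adjusted p = 0.0291) and 1.68 ± 0.36 in Mb1-Cre tumours (adjusted p = 0.00554). Cox6b2, its testis form, had 27.9, 28.1 and 33.9 CPM in Sca1-Cre, 13.7, 5.52, 39.8 and 42 CPM in Sca1-Lmo2 and 28.7 and 16.4 CPM in Mb1-Cre tumours, against 17.3, 16.2, 8.36 and 9.5 CPM in WT. The Aid-Cre tumour stood apart with 11 counts (0.229 CPM), and no comparison passed.

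Cox7a2, the ubiquitous form of subunit VIIa, had 288, 525 and 145 CPM in Sca1-Cre, 90.5, 105, 131 and 120.0 CPM in Sca1-Lmo2 and 251 and 552 CPM in Mb1-Cre tumours, and 161 CPM in the Aid-Cre tumour, against 169, 139, 96.8 and 71.9 CPM in WT. It rose by 1.42 ± 0.42 in Sca1-Cre (SE, edgeR adjusted p = 0.0283) and 1.75 ± 0.46 in Mb1-Cre tumours (adjusted p = 0.013). Cox7a2l, which joins complex IV to complex III in supercomplexes, did not follow the order of the summed levels. It had 397, 821 and 285 CPM in Sca1-Cre, 204, 229, 298 and 277 CPM in Sca1-Lmo2 and 353 and 269.7 CPM in Mb1-Cre tumours, and 187 CPM in the Aid-Cre tumour, against 325, 256, 199 and 164 CPM in WT, and it passed in Sca1-Cre tumours alone (1.09 ± 0.34, SE, edgeR adjusted p = 0.0365). Its log2 fold change was 0.40 ± 0.39 in Mb1-Cre tumours, and Mb1-Cre did not differ from Sca1-Cre tumours past the threshold (-0.69 ± 0.42, adjusted p = 0.431). Cox7a1, the heart and muscle form, stood at 0.281 to 5.2 CPM in the 10 tumours, against 0.888 to 2.37 CPM in WT, and passed in no comparison. Cox7b, the ubiquitous form of subunit VIIb, rose by 1.38 ± 0.34 in Sca1-Cre (SE, edgeR adjusted p = 0.0146) and 1.49 ± 0.37 in Mb1-Cre tumours (adjusted p = 0.0107). Cox7b2, its testis form, was nearly silent in Sca1-Lmo2 tumours with 3, 2, 1 and 10 counts. It had 21, 44 and 185 counts in Sca1-Cre, 76 and 32 in Mb1-Cre tumours and 22 in the Aid-Cre tumour, against 46, 10, 34 and 5 in WT.

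Cox6a2, the heart and skeletal muscle form of subunit VIa, had the largest fold changes of the 81 tested genes. It lies on chromosome 7 (GRCm38, 128205435 to 128206387, minus strand), wholly within the span of Itgad. Its level was 55.3, 1.41 and 5.76 CPM in Sca1-Cre, 59.4, 0.384, 92.1 and 4.6 CPM in Sca1-Lmo2 and 98.6 and 16.3 CPM in Mb1-Cre tumours. It was 9.32 CPM in the Aid-Cre tumour, against 0.722, 0.832, 0.473 and 0.264 CPM in WT. All tumours but Sca1-Lmo2 tumour 2 were above every WT thymus, and tumours of the same group differed widely, with coefficients of variation of 143.7% in Sca1-Cre, 113.5% in Sca1-Lmo2 and 101.3% in Mb1-Cre tumours. The log2 fold change was 5.18 ± 1.57 in Sca1-Cre (SE, edgeR adjusted p = 0.0312), 6.09 ± 1.59 in Sca1-Lmo2 (adjusted p = 0.0187) and 6.64 ± 1.70 in Mb1-Cre tumours (adjusted p = 0.0121). The call was lost without Sca1-Cre tumour 1 (2.66, adjusted p = 0.192), and without Mb1-Cre tumour 1 (4.83, adjusted p = 0.0687). Leaving out WT thymus 1, 3 or 4 also ended the Sca1-Lmo2 call, with adjusted p of 0.0518, 0.0542 and 0.0588, and leaving out any WT thymus ended the Sca1-Cre call, with adjusted p of 0.0582 to 0.0877. The 2 highest Sca1-Lmo2 tumours were the female ones. With males only, the log2 fold change was 1.67 in Sca1-Lmo2 (adjusted p = 0.525) and 6.20 in Mb1-Cre tumours (adjusted p = 0.0536), and with sex as a term the calls in Sca1-Cre (3.95, adjusted p = 0.0829) and Sca1-Lmo2 tumours (4.6, adjusted p = 0.0658) were lost. Both of these fits were chosen after seeing the data.

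Itgad counts were 2033, 71 and 517 in Sca1-Cre and 2901, 38, 4229 and 270 in Sca1-Lmo2 tumours. They were 4488 and 634 in Mb1-Cre tumours and 538 in the Aid-Cre tumour, against 217, 146, 149 and 103 in WT. Over the tumours they stood in the same order as those of Cox6a2. Since Itgad counts can hold the reads of Cox6a2, this order says nothing separate about Itgad. Only the remainder after the Cox6a2 counts were taken off moved differently, and reads of the pair cannot be told apart. Cox6a2 had 1962, 44 and 289 counts in Sca1-Cre, 2744, 19, 4078 and 222 in Sca1-Lmo2, 4266 and 545 in Mb1-Cre tumours and 448 in the Aid-Cre tumour, against 35, 42, 25 and 14 in WT. Itgad counts less those of Cox6a2 were 71, 27 and 228 in Sca1-Cre, 157, 19, 151 and 48 in Sca1-Lmo2, 222 and 89 in Mb1-Cre tumours and 90 in the Aid-Cre tumour, against 182, 104, 124 and 89 in WT. Since Cox6a2 is a gene of muscle, 15 muscle markers were read in the same libraries. Their summed level was 47.3, 84.7 and 72.5 CPM in Sca1-Cre, 49.6, 30.5, 77.9 and 51.6 CPM in Sca1-Lmo2, 98.3 and 79.6 CPM in Mb1-Cre tumours and 56.8 CPM in the Aid-Cre tumour, against 91.8, 76.2, 66.2 and 62.7 CPM in WT, so the groups overlapped. Mylpf at 36.1 to 48.6 CPM and Eno3 at 17.7 to 31.6 CPM gave most of the sum in WT, so it says little of the other markers. Acta1 and Mb reached at most 0.647 and 1.58 CPM in any library. In Mb1-Cre tumour 1, the library highest in Cox6a2, Ckm had 16.5 and Myl2 12.6 CPM, against at most 0.851 and 0.594 CPM in WT. In Sca1-Lmo2 tumours 1 and 3, next in Cox6a2, Ckm had 0.930 and 1.02 and Myl2 0.281 and 1.29 CPM. Sca1-Cre tumour 1 had 3.1 CPM of Ckm beside 55.3 CPM of Cox6a2. Sca1-Cre tumour 2 had 12.8 CPM of Ckm beside 1.41 CPM of Cox6a2. The part of muscle in Cox6a2 was not tested. Of the 6 muscle markers tested, Ckm rose in Sca1-Cre and Mb1-Cre tumours (log2 fold changes 3.68 and 4.03), Myl2 rose in Mb1-Cre tumours (3.94), Mylpf fell in Sca1-Lmo2 tumours (-1.54) and Tnnt3 fell in Mb1-Cre tumours. The share that rose was 16.7% in Sca1-Cre and 33.3% in Mb1-Cre tumours, against 16.5% and 19.7% of all genes. The ubiquitous form Cox6a1 had 237, 456 and 203 CPM in Sca1-Cre, 133, 180.1, 259 and 254 CPM in Sca1-Lmo2, 523 and 837 CPM in Mb1-Cre tumours and 296 CPM in the Aid-Cre tumour, against 225, 224, 130.1 and 101 CPM in WT. It passed in Mb1-Cre tumours alone, at 2.00 ± 0.41 (SE, edgeR adjusted p = 0.0051).

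**Figure D3:**
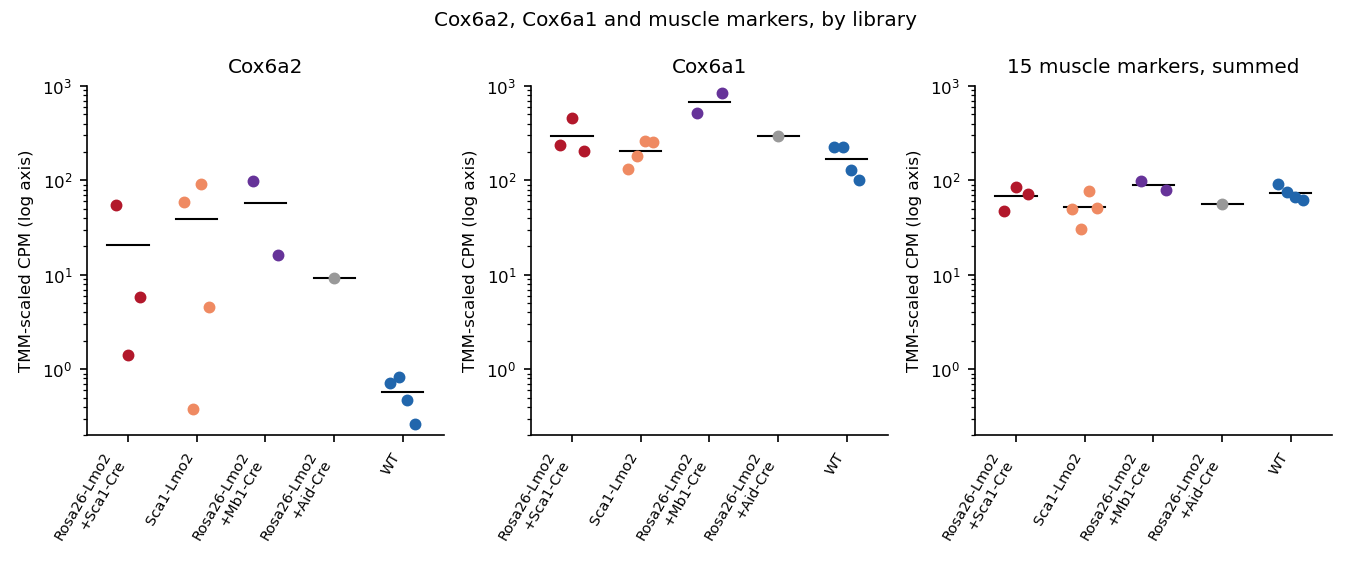
TMM-scaled CPM on a log axis of Cox6a2, of its ubiquitous form Cox6a1 and of 15 muscle markers summed, in each library by group, with a line at the mean. Cox6a2 runs between 0.264 and 0.832 CPM in WT and between 0.384 and 98.6 CPM in the tumours, while Cox6a1 stays between 101 and 837 CPM and the muscle markers between 30.5 and 98.3 CPM.

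Complex V, the ATP synthase, rose in 10 of 17 genes in Sca1-Cre (median log2 fold change 0.90), in 2 of 17 in Sca1-Lmo2 and in 15 of 17 in Mb1-Cre tumours (median 1.86). These shares were 58.8%, 11.8% and 88.2%, against 16.5%, 12.1% and 19.7% of all genes. The Sca1-Lmo2 share was near that of all genes. The summed level of complex V was 5933, 9071 and 4131 CPM in Sca1-Cre, 4021, 4279, 5293 and 4200.5 CPM in Sca1-Lmo2 and 7522 and 11338 CPM in Mb1-Cre tumours. It was 4119.6 CPM in the Aid-Cre tumour, against 3817, 3891, 2844 and 2466 CPM in WT, so that every tumour was above every WT thymus. Atp5s and Atp5sl, known today as Dmac2l and Dmac2, are counted among the 17 genes by the name rule only and are left out of the roles below. By role, the 3 genes of the c ring, the rotor that the protons turn, had median log2 fold changes of 1.26 in Sca1-Cre, 1.00 in Sca1-Lmo2 and 2.17 in Mb1-Cre tumours. The 7 other genes of the membrane part and side stalk had medians of 1.12, 0.13 and 1.96, and the 5 genes of the F1 head and central stalk, where ATP is made, had medians of 0.82, 0.47 and 1.19, in the same order of models.

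The c ring genes encode an identical mature protein. Atp5g1 had 165, 185 and 100.02 CPM in Sca1-Cre, 76.8, 81.5, 141 and 102 CPM in Sca1-Lmo2 and 225 and 445 CPM in Mb1-Cre tumours. It had 95.5 CPM in the Aid-Cre tumour, against 60.7, 64.7, 41.3 and 33.9 CPM in WT. All tumours lay above WT, and the log2 fold change was 1.58 ± 0.33 in Sca1-Cre (SE, edgeR adjusted p = 0.00915), 1.00 ± 0.31 in Sca1-Lmo2 (adjusted p = 0.0372) and 2.74 ± 0.36 in Mb1-Cre tumours (adjusted p = 0.000971). Atp5g2 had 320.4, 520.0 and 222 CPM in Sca1-Cre, 412, 258, 537 and 308 CPM in Sca1-Lmo2 and 526 and 799 CPM in Mb1-Cre tumours, and 218 CPM in the Aid-Cre tumour, against 173, 175, 133 and 109 CPM in WT. It also separated all tumours from WT, at 1.26 ± 0.33 in Sca1-Cre (SE, edgeR adjusted p = 0.0192), 1.36 ± 0.32 in Sca1-Lmo2 (adjusted p = 0.0113) and 2.17 ± 0.37 in Mb1-Cre tumours (adjusted p = 0.00218). Atp5g3 had 294, 560.4 and 278 CPM in Sca1-Cre, 214, 267, 345 and 315 CPM in Sca1-Lmo2 and 424 and 534 CPM in Mb1-Cre tumours, and 256 CPM in the Aid-Cre tumour, against 303, 284, 171 and 191 CPM in WT. It overlapped WT in the first 2 of these groups and passed in Mb1-Cre tumours alone (1.01 ± 0.33, SE, edgeR adjusted p = 0.0344).

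Atp5a1 and Atp5b form the catalytic hexamer of the F1 head. Atp5a1 had 526, 762 and 641 CPM in Sca1-Cre, 759, 806, 705 and 585 CPM in Sca1-Lmo2 and 599 and 806 CPM in Mb1-Cre tumours, and 596 CPM in the Aid-Cre tumour, against 505, 587, 525 and 467 CPM in WT. It passed in no comparison, with log2 fold changes of 0.30 ± 0.22, 0.45 ± 0.20 and 0.43 ± 0.24 in Sca1-Cre, Sca1-Lmo2 and Mb1-Cre tumours (SE, edgeR adjusted p of 0.301, 0.125 and 0.182). Atp5b had 792, 1175 and 649 CPM in Sca1-Cre, 983, 1134, 1036 and 842 CPM in Sca1-Lmo2 and 1086 and 1996 CPM in Mb1-Cre tumours, and 808 CPM in the Aid-Cre tumour, against 587, 759, 617 and 483 CPM in WT. It passed in Mb1-Cre tumours alone, at 1.33 ± 0.32 (SE, edgeR adjusted p = 0.00869). Among the small subunits, Atp5e of the central stalk had 699, 911 and 207 CPM in Sca1-Cre, 112, 126, 273 and 202 CPM in Sca1-Lmo2 and 401 and 618 CPM in Mb1-Cre tumours, and 177 CPM in the Aid-Cre tumour, against 203, 155, 84.6 and 73 CPM in WT. Its rise of 2.23 ± 0.51 was the largest of complex V in Sca1-Cre tumours (SE, edgeR adjusted p = 0.0121). Atp5l, a subunit at the dimer interface, had 504, 678 and 262 CPM in Sca1-Cre, 140.2, 137, 246 and 187 CPM in Sca1-Lmo2 and 425 and 652 CPM in Mb1-Cre tumours, and 200.1 CPM in the Aid-Cre tumour, against 200.02, 154, 102 and 98.2 CPM in WT. It rose by 1.80 ± 0.36 in Sca1-Cre (SE, edgeR adjusted p = 0.00831) and 1.96 ± 0.40 in Mb1-Cre tumours (adjusted p = 0.00458).

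Of all tested genes of the pathway, 5 rose in all 3 replicated models: Ndufa10, Cox6a2, Cox8a, Atp5g1 and Atp5g2. They are also all the genes that rose in Sca1-Lmo2 tumours. Ndufa10 and Atp5g2 were called in Sca1-Lmo2 tumours whichever library was left out, and the others lost the call in at least 1 such fit. With males only, which leaves 2 Sca1-Lmo2 tumours and 2 WT thymi, none of the 5 was called in Sca1-Lmo2 tumours, and with sex as a term 4 of them were called, Cox6a2 not. Atp5g2 lies on chromosome 15 (GRCm38, 102662864 to 102672352), and over all genes of that chromosome the median log2 level against WT was 0.54, 0.06, 0.53 and 0.55 in the 4 Sca1-Lmo2 tumours, against -0.02 to 0.06 in the 4 WT thymi. In the last window of that chromosome, from 100 megabases on, the same medians were 0.46, -0.07, 0.48 and 0.57. Sca1-Lmo2 tumour 2, where the window was not raised, had the lowest Atp5g2 of its group at 258 CPM, against a WT maximum of 175 CPM. Cox6c, Ndufb9 and Ndufa6 lie on chromosome 15 too, did not pass in Sca1-Lmo2 tumours, and were likewise lowest in tumour 2 of that group. Ndufb9 had 100.3, 78.8, 162 and 165 CPM in Sca1-Lmo2 tumours, against 77.7, 76.2, 52.4 and 42 CPM in WT, without overlap. The part of the chromosome in these levels was not tested.

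The models were also set against each other. In Sca1-Lmo2 against Sca1-Cre tumours, 15 of 81 genes fell and none rose (18.5%, against 6.3% lower and 3.59% higher over all genes), with a median log2 fold change of -0.76. Of these, 9 were of complex I, 1 of complex III, 2 of complex IV and 3 of complex V. Ndufs4, an accessory subunit of the peripheral arm, had 56.3, 70, 91.1 and 78.1 CPM in Sca1-Lmo2 tumours, against 189, 276 and 123 CPM in Sca1-Cre tumours, with 142, 111, 79.7 and 73.5 CPM in WT. The log2 fold change between the models was -1.41 ± 0.31 (SE, edgeR adjusted p = 0.0209), and the tumour groups did not overlap. The same test gave -1.26 ± 0.36 for Uqcr10 (adjusted p = 0.0465), -1.44 ± 0.36 for Atp5l (adjusted p = 0.0305) and -4.45 ± 0.97 for Cox7b2 (adjusted p = 0.0199), the last from few counts. None of the 15 was called in every fit that left out 1 library, and the count was 0 without Sca1-Lmo2 tumour 1, 1 without Sca1-Cre tumour 2, 2 without Sca1-Lmo2 tumour 2, 4 without Sca1-Cre tumour 1, 8 without Sca1-Lmo2 tumour 3 and 35 without Sca1-Cre tumour 3. In 19 genes every Sca1-Lmo2 tumour lay below every Sca1-Cre tumour, and in none above, a count that was not made over all genes.

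In Mb1-Cre against Sca1-Lmo2 tumours, 40 of 81 genes rose and none fell (49.4%, against 6.04% higher and 4.49% lower over all genes), with a median log2 fold change of 1.24. Both Mb1-Cre tumours lay above all 4 Sca1-Lmo2 tumours in 68 genes, a count that was not made over all genes. Atp5o, which ties the F1 head to the side stalk, had 815 and 690.0 CPM in Mb1-Cre tumours, against 158, 194, 255 and 202 CPM in Sca1-Lmo2 tumours, with 382, 504 and 225 CPM in Sca1-Cre tumours and 204, 217, 144 and 116 CPM in WT. Its log2 fold change between Mb1-Cre and Sca1-Lmo2 tumours was 1.90 ± 0.33 (SE, edgeR adjusted p = 0.0179). Atp5o lies on chromosome 16 and overlaps Donson, and genes in its window of 20 megabases had a median log2 level against WT of 0.63 in Mb1-Cre tumour 1 and -0.01 in Mb1-Cre tumour 2. The part of this in the level of Atp5o was not tested. Sdhb differed by 1.60 ± 0.28 (SE, edgeR adjusted p = 0.0183), Uqcr10 by 1.93 ± 0.40 (adjusted p = 0.0224) and Cox6b1 by 1.51 ± 0.36 (adjusted p = 0.0285). Ndufb4, an accessory subunit of the membrane arm, had 112 and 169 CPM in Mb1-Cre tumours, against 38.77, 44.2, 49.9 and 50.3 CPM in Sca1-Lmo2 tumours, a log2 fold change of 1.62 ± 0.31 (SE, edgeR adjusted p = 0.0219). The count was 0 without Sca1-Lmo2 tumour 1 or without Mb1-Cre tumour 2, 11 without Sca1-Lmo2 tumour 2, and 0 with sex as a term. Between Mb1-Cre and Sca1-Cre tumours, edgeR called 0 of 81 genes, against 0.123% higher and 0.0878% lower over all genes. At an unadjusted p under 0.05, 17 genes were higher in Mb1-Cre than in Sca1-Cre tumours and 0 lower, DESeq2 called 3, and both Mb1-Cre tumours lay above all 3 Sca1-Cre tumours in 15 genes. The last of these counts was not made over all genes.

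The Aid-Cre tumour had no replicate and was compared with the WT range only. Of the 81 genes, 33 were above the highest WT thymus, 42 within the range and 6 below the lowest. These counts were not made over all genes, so they cannot be set against a share expected of any gene. The summed level of the Aid-Cre tumour was within the WT range for complexes I, III and IV and above it for complex II and complex V.

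Most of these mRNAs are short, and the fold changes went with length. Of the 81 tested genes, 48 have an annotated principal mRNA under 1000 bases, 25 one of 1000 to 2000 bases and 8 a longer one. In Sca1-Cre tumours 34 of the 48 short, 14 of the 25 middle and 3 of the 8 long mRNAs rose, with median log2 fold changes of 1.24, 0.82 and 0.19. Over all tested protein-coding genes of the same length classes, 41.7%, 19.6% and 11.9% rose, with medians of 0.99, 0.32 and -0.10. In Mb1-Cre tumours 45 of 48, 19 of 25 and 4 of 8 rose, with medians of 1.68, 1.32 and 0.48, against 44.6%, 28.5% and 13.7% of all such genes, with medians of 1.03, 0.40 and -0.22. In Sca1-Lmo2 tumours 3 of 48, 0 of 25 and 2 of 8 rose, against 11%, 12.8% and 12.5% of all such genes. Among all short mRNAs 2.47% fell in Sca1-Cre and 4.43% in Mb1-Cre tumours. In both models the median over all genes was highest for short mRNAs, and in each length class the median of the pathway's genes stood above that of all genes. Across the 81 genes, which are not independent replicates and share their libraries, log2 mRNA length and log2 fold change had a Pearson r of -0.423 and a Spearman rho of -0.506 in Sca1-Cre, 0.038 and 0.109 in Sca1-Lmo2, and -0.335 and -0.364 in Mb1-Cre tumours. With a correction for mRNA length in each library, chosen after seeing the data, 30 genes rose in Sca1-Cre (median log2 fold change 0.66), 8 in Sca1-Lmo2 and 53 in Mb1-Cre tumours (median 0.96). The annotated length can miss the form in use: that of Atp5g1 is 4715 bases.

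**Figure D4:**
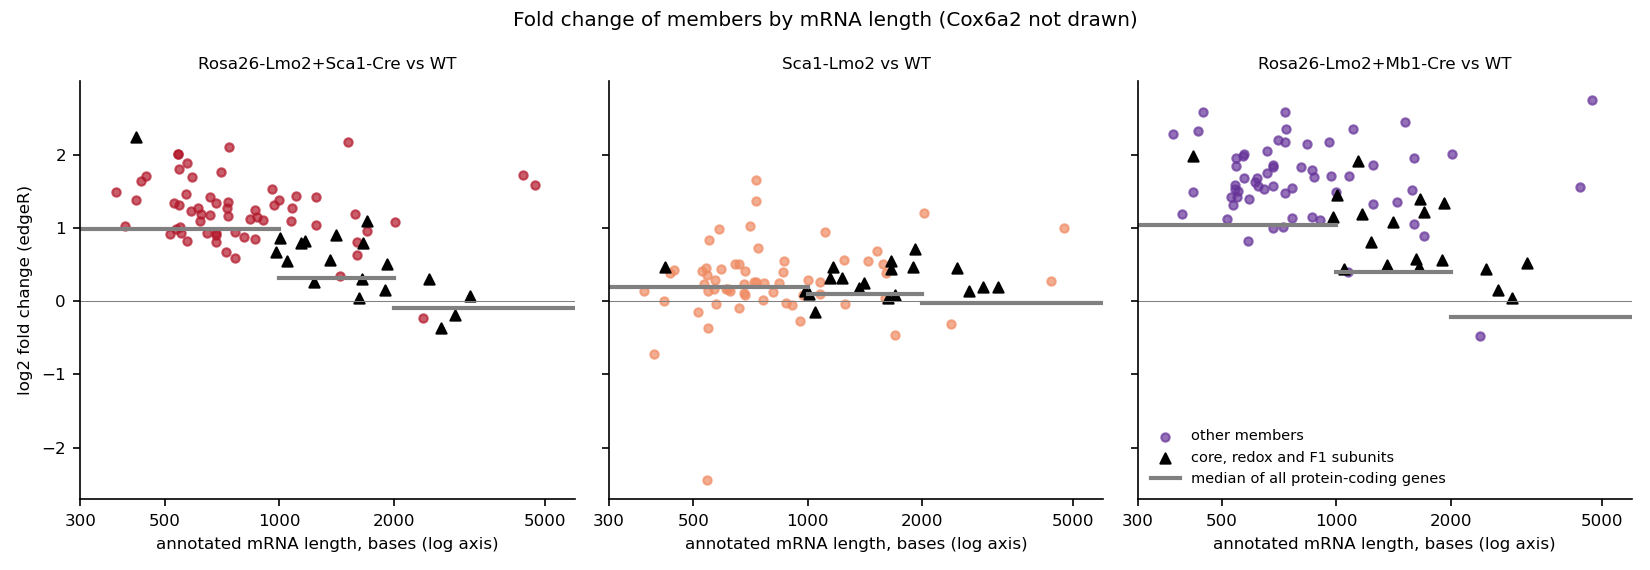
Log2 fold change against WT of each tested gene but Cox6a2 over the length of its annotated principal mRNA in bases (log axis), by tumour group, with triangles for core, redox and F1 subunits and grey bars for the median of all protein-coding genes in 3 length classes. The points fall with length in Sca1-Cre and Mb1-Cre tumours, as the medians of all genes do, and lie level in Sca1-Lmo2 tumours.

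Other cell types moved with some libraries, and their part in the levels above was not tested. The summed level of 9 myeloid markers was 356, 521 and 1452 CPM in Sca1-Cre, 101 to 153 CPM in Sca1-Lmo2, 232 and 847 CPM in Mb1-Cre tumours and 382 CPM in the Aid-Cre tumour, against 102 to 177 CPM in WT. In Sca1-Cre tumour 3, the highest of them, S100a8 and S100a9, genes of neutrophils, gave 521 and 623 CPM. The sum of 9 markers of brown or white adipocytes was 16.3, 19.8 and 9.39 CPM in Sca1-Cre, 1.40 to 3.21 CPM in Sca1-Lmo2, 3.74 and 36.7 CPM in Mb1-Cre tumours and 11.7 CPM in the Aid-Cre tumour, against 2.46 to 3.63 CPM in WT. Fabp4, also made by macrophages and endothelium, gave most of it with up to 34.4 CPM. Ucp1 was at most 0.351 CPM, and Adipoq at most 0.303 CPM. Erythroid markers summed to 1063, 6973 and 1022 CPM in Sca1-Cre, 974 to 2475 CPM in Sca1-Lmo2, 2309.5 and 1781 CPM in Mb1-Cre tumours and 673 CPM in the Aid-Cre tumour, against 283 to 2420 CPM in WT. Stroma and endothelium markers stood at 88.3 to 196 CPM in the tumours, against 117 to 126 CPM in WT, where Pecam1 alone gave 110 to 120 CPM. The sum therefore hides the other markers. Of the 6 tested, 5 rose and 1 fell in Sca1-Cre tumours (83.3% higher, against 16.5% of all genes). In Sca1-Lmo2 tumours 2 rose and 0 fell, and in Mb1-Cre tumours 3 rose and 1 fell. Col3a1 had 7.89, 22.8 and 16.8 CPM in Sca1-Cre tumours, against 0.642 to 1.80 CPM in WT. B-cell markers stood at 5.45 to 58.9 CPM in the tumours, against 49.3 to 91.4 CPM in WT, and thymic epithelium markers at 0.869 to 83.3 CPM, against 27.5 to 48.7 CPM in WT.

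Other genes of the mitochondrion were read from lists, beside the shares of all genes given above. Of 77 mitochondrial ribosomal protein genes, which serve the translation of the subunits encoded in mitochondria, 27 rose in Sca1-Cre and 0 fell (median log2 fold change 0.70), 6 rose and 1 fell in Sca1-Lmo2 (median 0.27), and 61 rose and 0 fell in Mb1-Cre tumours (median 1.21). Of 47 assembly factors of the complexes, 13 rose and 0 fell in Sca1-Cre (median 0.42), 6 rose and 1 fell in Sca1-Lmo2 (median 0.34), and 19 rose and 0 fell in Mb1-Cre tumours (median 0.62). Ndufaf7, a methyltransferase for complex I, rose by 1.05, 0.88 and 1.43 in Sca1-Cre, Sca1-Lmo2 and Mb1-Cre tumours, Lrpprc, which stabilises mitochondrial mRNAs, by 0.59, 0.72 and 1.20, and Ndufaf6 by 1.05, 1.08 and 1.93. Uqcc2, a complex III assembly factor, rose by 2.39 in Sca1-Cre and 2.403 in Mb1-Cre tumours, and Cox20, which serves complex IV, fell by 0.85 in Sca1-Lmo2 tumours. In Sca1-Lmo2 tumours the 12.8% of assembly factors called higher was close to the 12.1% of all genes, and the share of ribosomal protein genes, 7.79%, was below it.

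Of 13 enzymes of the tricarboxylic acid cycle, which feed NADH and succinate to the chain, 2 rose in Sca1-Cre (median log2 fold change 0.13), 4 in Sca1-Lmo2 (median 0.40) and 7 in Mb1-Cre tumours (median 0.68), and 0 fell. The share in Sca1-Cre tumours, 15.4%, was near the 16.5% of all genes. Suclg2, a subunit of succinyl-CoA ligase, rose in all 3, by 0.93, 1.67 and 1.44, and Mdh2, the malate dehydrogenase of mitochondria, rose by 1.65 in Mb1-Cre tumours. Of 8 electron carriers and subunits outside the name rule, 3 rose in Sca1-Cre, 2 in Sca1-Lmo2 and 7 in Mb1-Cre tumours. Etfb, which carries electrons from fatty acid oxidation, rose by 1.71, 1.05 and 2.14, and Cycs, the mobile cytochrome c, by 1.67 in Mb1-Cre tumours. Of 13 tested regulators of mitochondrial biogenesis none rose in any model, while 2 fell in Sca1-Cre, 1 in Sca1-Lmo2 and 3 in Mb1-Cre tumours, shares of 15.4%, 7.69% and 23.1%, near the 10.4%, 10.2% and 15.4% of all genes that fell. Gabpb1, the partner of GABPA, fell in all 3 (log2 fold changes -1.07, -0.49 and -1.32), Nrf1 fell in Sca1-Cre tumours (-0.72), and Polg (-0.97) and Yy1 (-0.62) fell in Mb1-Cre tumours. Myc rose in Sca1-Lmo2 (2.19) and Mb1-Cre tumours (1.60), with 0.85 in Sca1-Cre tumours (edgeR adjusted p = 0.139), and its relative Mycn fell in all 3.

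**Figure D5:**
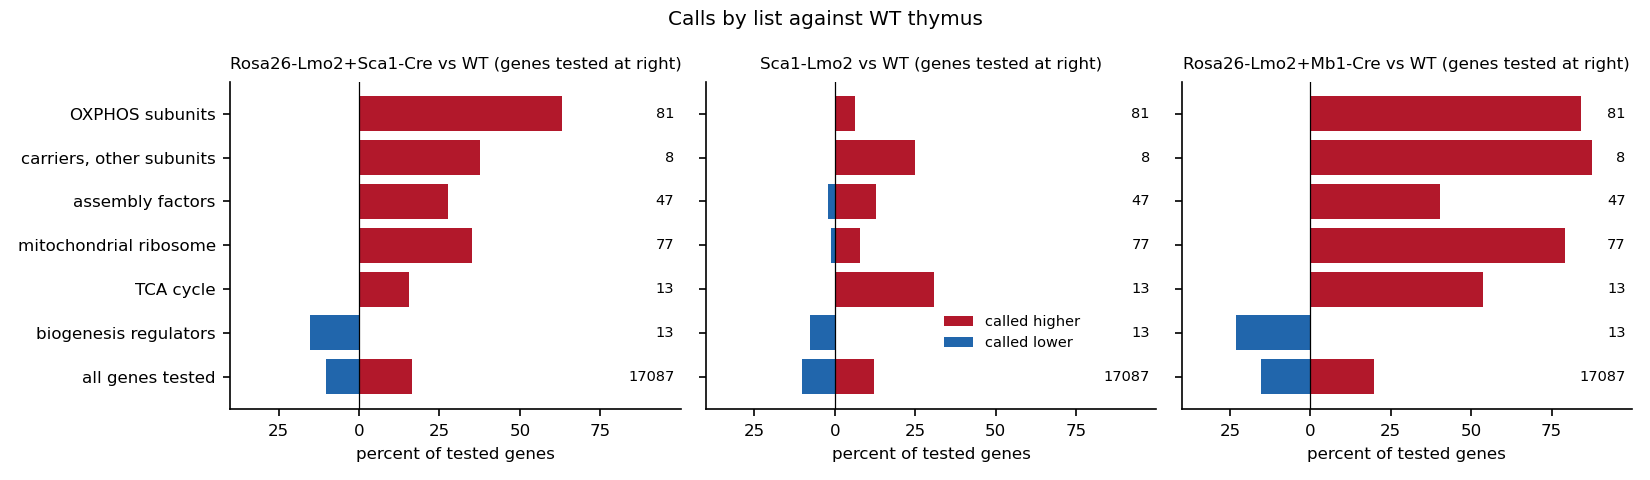
Share in percent of the tested genes of each list that rose or fell against WT at an adjusted p under 0.05, by tumour group, beside the same share over all tested genes. The subunits reach 63% in Sca1-Cre, 6.17% in Sca1-Lmo2 and 84% in Mb1-Cre tumours.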

How the data were processed

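The labels describe frozen mouse thymus, Trizol extraction and 1 ug of total RNA in a TruSeq kit that does not mark strand, whereas blast cells are named as the tumour material in the methods. The authors aligned reads of 100 bases with TopHat2 2.1.0 to GRCm38 (mm10), counted them per gene and deposited raw counts, not normalized, in 1 table of 14 libraries. Of 46948 gene lines, 46946 were kept after exact repeats were dropped, and 98.95% of their identifiers were found in GENCODE M21. Summed counts per library were 42985130 to 47667663, and counting error is small at that depth beside the spread between libraries.

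The 17087 genes that reached 1 CPM in 3 or more libraries were tested with edgeR 4.0.16 in R 4.3.3 (TMM factors, quasi-likelihood test, 2-sided, Benjamini-Hochberg adjustment over all tested genes, threshold 0.05). All 14 libraries entered 1 fit with 1 mean per group, and the 6 comparisons between the 4 replicated groups were contrasts of it. The fit was tested on simulated data, but no result of that test is given here. DESeq2 1.42.0 was an alternative, beside other normalizations, no filter, fits of 2 groups, a replicate block and leaving out each library. Sex as a term, males only, and corrections for gene span and mRNA length were chosen after seeing the data.

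Named were, per complex and comparison with WT, the called genes of smallest adjusted p and of largest fold, the called gene of smallest adjusted p per complex between models, all isoform sets, complex II, 7 core genes and those called in all 3 comparisons with WT. The genes, lists and markers were chosen with earlier results of these data known. Promoter windows and mRNA lengths came from RefSeq (GRCm38.p6) and GENCODE M21. Overlapping genes were counted without strand, so their reads cannot be told apart.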

Additional observations from a re-analysis of the deposited data

Results flagged for a closer look

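Against Sca1-Cre tumours, Sca1-Lmo2 tumours had 15 subunit genes called lower by the edgeR contrast between the models. The called gene of smallest adjusted p in each complex was Ndufs4 (log2 fold change -1.41), Uqcr10 (-1.26), Cox7b2 (-4.45) and Atp5l (-1.44), with none in complex II. The 4 Sca1-Lmo2 tumours were 7 to 8 months old and the 3 Sca1-Cre tumours 9 months, and both groups held both sexes.

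Against Sca1-Lmo2 tumours, Mb1-Cre tumours had 40 subunit genes called higher by the same contrast. The gene of smallest adjusted p in each complex was Ndufb4 (1.62), Sdhb (1.6), Uqcr10 (1.93), Cox6b1 (1.51) and Atp5o (1.9). Both Mb1-Cre tumours were male and 20 months old, so that age and genotype cannot be told apart.

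The single Aid-Cre tumour, which entered no comparison between groups, lay above the highest WT thymus in the summed level of complex II, at 470.8 CPM in the Aid-Cre tumour against 442 CPM in that WT thymus, and of complex V, at 4120 CPM against 3891 CPM. In groups of 4 libraries, 92 sets of values were examined for a library far from the others, and 0 passed Dixon's critical value.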

How the results depend on the processing

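For Sca1-Cre against WT, 51 genes were called, and 27 with library totals without TMM, 30 with the correction for mRNA length and 14 to 59 when 1 library was left out. For Sca1-Lmo2 against WT, 5 were called, and 10 with only the 2 groups, 3 with Sca1-Lmo2 replicates 1 and 3 averaged, 12 (and 1 lower) with DESeq2, 8 with the correction for mRNA length, 0 with males only, where the median reversed to -0.024, and 2 to 7 when 1 library was left out: 3 without Sca1-Lmo2 tumour 3 or 4, and 2 without WT thymus 1, 3 or 4. For Mb1-Cre against WT, 68 were called, and 25 with males only and 21 to 69 when 1 library was left out, and the median of 1.52 was 1.06 without TMM and 0.96 with the correction for mRNA length. For Sca1-Lmo2 against Sca1-Cre, 15 were called lower, and 0 with only the 2 groups, 2 with the averaged replicates, 37 with DESeq2, 7 with sex as a term and 0 to 35 when 1 library was left out. For Mb1-Cre against Sca1-Cre, 0 were called, and 3 with DESeq2 and 0 to 1 when 1 library was left out (1 without Sca1-Cre tumour 2). For Mb1-Cre against Sca1-Lmo2, 40 were called, and 0 with only the 2 groups, 24 with the averaged replicates, 0 with sex as a term, 0 with males only and 0 to 42 when 1 library was left out, and the median of 1.24 was 0.85 with the correction for mRNA length. The causes of these moves were not tested, beyond the fewer libraries in fits that leave some out. The summed level of complex II without TMM was 526.6 CPM in the Aid-Cre tumour and 476.0 CPM in WT. With 1 mismatch allowed, 47.83% of the windows held the GABPA letters, 44.93% those of NRF1, 36.23% those of YY1 and 66.67% an E-box, against 25.34%, 12.64%, 26.53% and 66.51% of all genes. The replicate numbers did not pair the libraries: same-numbered libraries of different groups had deviations that correlated at -0.382 to 0.17. With the number as a replicate block, 15, 3 and 43 genes were called against WT in Sca1-Cre, Sca1-Lmo2 and Mb1-Cre tumours, 0 in Sca1-Lmo2 against Sca1-Cre and 0 in Mb1-Cre against Sca1-Lmo2 tumours. Over the named genes, each taken in each comparison and alternative, values that were called stayed called 715 times and lost the call 211 times, and uncalled ones gained it 41 times. With 1 library left out these numbers were 362, 189 and 22. The sign turned for 0 called values, and for uncalled ones 59 times, and 62 times with 1 library left out.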
